A study of Mus musculus with 6 samples.

Results

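DnaJ proteins (also called HSP40 or J proteins) are the co-chaperones that bring unfolded proteins to HSP70 chaperones and switch on the HSP70 ATPase through their J domain. They are sorted by domain layout: subfamily A has the J domain, a glycine- and phenylalanine-rich stretch and a zinc finger, subfamily B lacks the zinc finger, and subfamily C shares little beyond the J domain. In the testis several members are made mainly in germ cells, where one of them, DNAJB13, is a structural part of the sperm flagellum. The family was taken here as the protein-coding genes whose symbol begins with Dnaja, Dnajb or Dnajc followed by a number, which gave 45 of the 17807 protein-coding genes in a table of 29333 genes. There were 4 members in subfamily A, 13 in subfamily B and 28 in subfamily C. A list of 6 members known as testis-restricted or strongly testis-enriched (Dnajb3, Dnajb7, Dnajb8, Dnajb13, Dnajc5b and Dnajc5g) was kept apart.

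RNA was sequenced from testes of Hsf5-/- mice (called knockout) and of control mice at postnatal day 16. Pachytene spermatocytes are then the most advanced germ cells of a normal mouse. HSF5 belongs to the heat shock factor family of transcription factors and is made in spermatocytes. The controls are wild type by their sample labels, but Hsf5+/- mice may be among them according to the design text. The strain and the deleted part of the gene were not found in the descriptions used here. The labels list 3 samples per group, and value columns for knockout 1, knockout 3, control 1 and control 2 were analysed. Nothing says that each sample is a separate animal, so p-values describe the spread among these libraries, which may be technical.

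Library totals, with the smallest value of each library taken as 1 read, lay between 16209093 and 18557898. Hsf5 itself stood at 1926 and 1602 normalised counts in the knockouts and at 2541 and 3147 in the controls (log2 fold change -0.69, SE 0.12, limma adjusted p = 0.00716). The controls were not alike: the Spearman correlation with the knockouts, over the genes tested, was 0.973 and 0.969 for control 1 and 0.947 and 0.940 for control 2. Markers of pachytene and diplotene spermatocytes were lower in 12 of 12 genes and summed to 9121 and 6932 normalised counts in the knockouts, against 36522 and 61213 in the controls. This and the other marker lists were drawn up with earlier results of these data known, so their counts are descriptions only. Early meiotic prophase genes summed to 32181 and 26471 in the knockouts and 30805 and 34940 in the controls, with 1 of 10 called lower, and Sertoli cell markers to 119313 and 112484 against 100426 and 93402, with 3 of 9 called higher. Spermatogonial markers had 3 of 9 called higher and 1 lower, and of 15 markers of Leydig, myoid and endothelial cells and macrophages limma called 0 (1 at an unadjusted p under 0.05, and 0 in the authors' deposited table). Over all genes tested, limma called 13.5% lower and 3.28% higher. The sum of the Leydig cell markers also set the libraries apart within each group, at 4115 and 2649 in the knockouts and 2819 and 5737 in the controls. Cyp17a1, a steroid hydroxylase, stood at 1104 and 332 in the knockouts and 284 and 1493 in the controls, and Star at 1112 and 464 against 444 and 1408. Other markers of the list did not follow them as far. Hsd3b1 stood at 1251 and 1340 against 1463 and 1734, and Insl3 at 12.0 and 7.17 against 12.6 and 12.9. The spermatid genes Prm1, Prm2, Tnp2 and Acrv1 were at or near 0 in every library, at most 8.73, and Spaca1 stood at 143 and 94.2 in the knockouts and 128 and 129 in the controls. In bulk tissue, fewer cells of a type and less RNA per cell cannot be told apart. The part of cell composition in any result that follows was not tested.

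The question put to the family was which members differ between knockout and control testes. A gene was called when limma, run on log2(value + 1) over all genes with a mean of at least 10 normalised counts, gave a Benjamini-Hochberg adjusted p under 0.05, and 41 of the 45 members were tested. Of these, 11 fell (26.8%, against 13.5% of all 17480 genes tested) and 1 rose (2.44%, against 3.28%). The members are all protein-coding, whereas the genes tested were not limited to protein-coding genes or matched to the members in level. The median log2 fold change of knockout over control was -0.15 for the tested members, and 0.01 for all genes tested; scaled by library totals these medians were -0.04 and 0.12. The count depended on the variance model and the filter: limma called 0 members without the mean-variance trend (12 at an unadjusted p under 0.05), and 3 fell and 0 rose without the filter on low values (16 at an unadjusted p under 0.05). Dnajb13, Dnajc5g and Dnajc2 were the 3 that kept their call without the filter. The falls with trend and filter were Dnajb13, Dnajb3, Dnajc5g, Dnajc27, Dnajc4, Dnajc2, Dnajb6, Dnajc21, Dnajc15, Dnajc3 and Dnajc10, and the rise was Dnajc19. In the authors' deposited table the same 12 members pass an adjusted p of 0.05, in the same directions, out of 43 members with a value there, where 11.3% of all genes are lower and 2.26% higher. The 2 groups did not overlap in 22 members lower in the knockouts (53.7% of those tested, against 31.9% of all genes) and in 5 members higher in them (12.2%, against 29.8%).

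**Figure D1:**
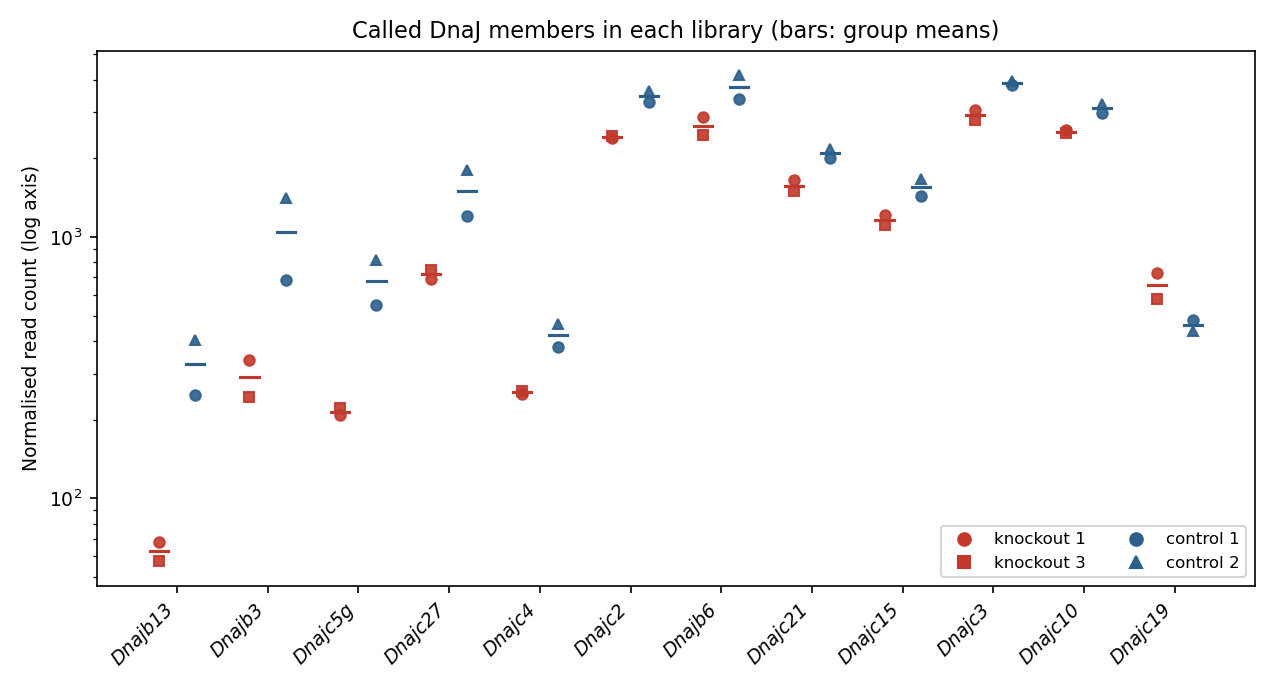
Normalised read count (log axis) of the 12 called members in each library, ordered by log2 fold change, with knockouts left of controls and a bar at each group mean. Dnajb13, Dnajb3, Dnajc5g and Dnajc27 show the widest gaps, control 2 lies above control 1 in all 11 members that fell, and Dnajc19 alone is higher in the knockouts.

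The testis-restricted members that were expressed gave the largest falls of the family. Dnajb13 encodes a J protein of the axonemal radial spokes, the struts between outer and central microtubules. Its normalised count was 68.1 in knockout 1 and 57.4 in knockout 3, against 248 in control 1 and 403 in control 2. Both knockouts lay far below both controls, at 19.3% of the control mean (62.8 ± 7.63 in knockouts and 325 ± 109 in controls, SD, n = 2 each). The log2 fold change was -2.32 (SE 0.26, limma adjusted p = 0.000809), and the call held whichever library was left out, between -2.67 without control 1 and -1.97 without control 2. In GENCODE M21, 305 of its 2732 exon bases (11.2%) also lie in exons of Ucp2 on the opposite strand. The strand setting of the counting is not given, and Ucp2 stood at 4737 and 4307 in the knockouts and 3960 and 3809 in the controls, so a share of the reads counted for Dnajb13 could not be assigned to either gene with certainty.

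Dnajc5g encodes cysteine string protein gamma, the testis form of a palmitoylated vesicle protein. It had 208 and 221 normalised counts in the knockouts, against 550 and 813 in the controls. The knockouts agreed closely and lay well under the lower control. The group means were 215 ± 9.06 in knockouts and 681 ± 186 in controls (SD, n = 2 each), a log2 fold change of -1.63 (SE 0.19, limma adjusted p = 0.000892), with values from -1.92 to -1.35 and the call kept when any 1 library was left out.

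Dnajb3, known in mice as MSJ-1, is a germ cell relative of Dnajb6. It had 340 and 244 normalised counts in the knockouts, against 683 and 1406 in the controls. The groups were apart, but the controls differed about as much from each other as control 1 did from knockout 1, with a log2 ratio of control 2 over control 1 of 1.04. The log2 fold change was -1.76 (SE 0.30, limma adjusted p = 0.00535). The call was lost without control 2 (-1.24, limma adjusted p = 0.0588) and without knockout 3 (-1.53, limma adjusted p = 0.0556), with the genes tested held the same.

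The other 3 testis-restricted members were hardly read in either group and were not tested. Dnajb7 had 7.02 and 3.07 normalised counts in the knockouts and 5.82 and 3.97 in the controls. Dnajb8 had 5.01 in knockout 1, 3.88 in control 1 and 0 in the other library of each group. Dnajc5b was at 0 in all but control 2, where it had 1.98. No difference in these 3 was detectable at this depth.

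The 3 testis-restricted members that were read can be set against a broadly expressed relative in the same library, which takes out the scaling between libraries. Levels are given per kilobase of merged exon. Dnajb3 stood at 68.2% and 57.0% of the Dnajb6 level per kilobase in the knockouts, against 117% and 195% in the controls. Per kilobase, Dnajb3 was thus below Dnajb6 in both knockouts and above it in both controls. In normalised counts it was below Dnajb6 in every library. The crossing therefore rests on the merged exon lengths, 1051 bases for Dnajb3 and 6062 for Dnajb6. Dnajc5g stood at 31.6% and 32.1% of the level of Dnajc5, the widely expressed cysteine string protein alpha, in the knockouts, against 80.1% and 129% in the controls. Dnajb13 was at 3.53% and 3.36% of the level of Dnajb1, the classic heat-inducible HSP40, in the knockouts and at 12.5% and 15.0% in the controls. None of the 3 ratios overlapped between groups, and an exact permutation test of 2 against 2 libraries cannot give a two-sided p below 0.333. These pairs were chosen after the values were seen.

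**Figure D2:**
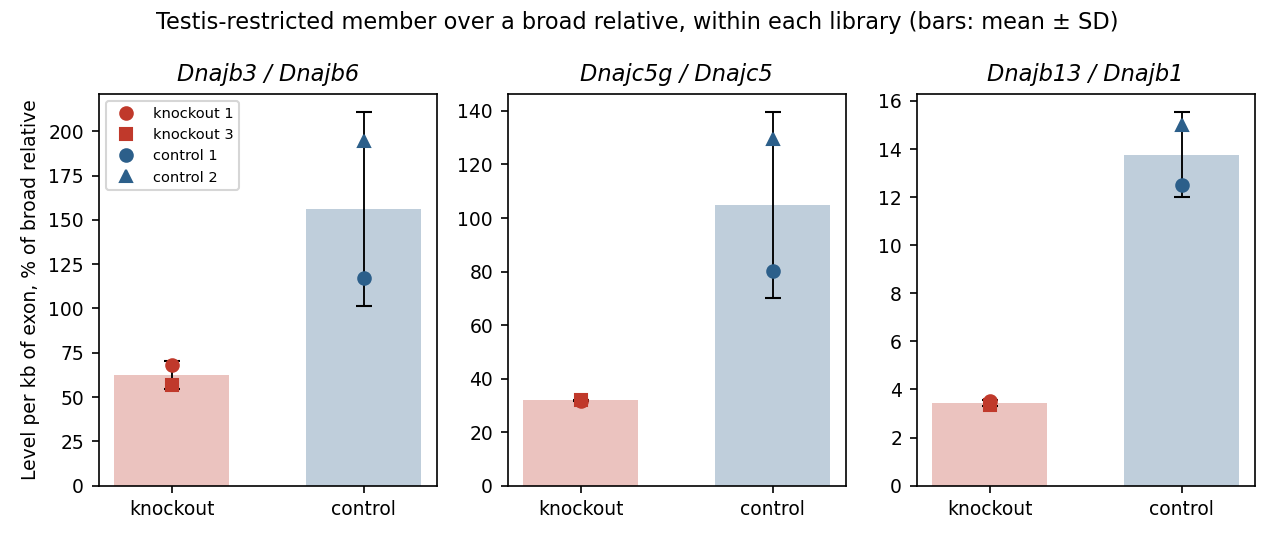
Level per kilobase of exon of Dnajb3, Dnajc5g and Dnajb13 as a percent of Dnajb6, Dnajc5 and Dnajb1 in the same library; bars are group means, error bars SD (n = 2), points libraries, knockouts left of controls. Each ratio is lower in both knockouts than in either control, and the controls lie further apart than the knockouts.

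Per kilobase, the order of the members within a library moved mainly through these genes. Dnaja2, a cytosolic subfamily A co-chaperone, had the highest level of the 45 in every library, with means of 1655 per kilobase in knockouts and 1874 in controls. In normalised counts Dnaja1 was above Dnaja2 in every library, so this order too rests on the merged exon lengths (8629 and 2975 bases). Dnajb11, an endoplasmic reticulum partner of the HSP70 BiP, followed Dnaja2 per kilobase by group mean with 1009 and 1063. Dnajb3 had rank 17 by mean level in the knockouts and rank 3 in the controls, though its place in the single controls was 8 and 2, so its order there against its neighbours Dnajb11 and Dnajc8 was not settled. Dnajc5g had rank 30 in the knockouts and 16 in the controls, Dnajb13 rank 40 and 31, and Dnajc27 rank 28 and 20. The 6 testis-restricted members together made up 3.58% and 3.08% of the summed level per kilobase of the family in the knockouts, against 7.12% and 11.6% in the controls. In normalised counts the whole family summed to 58119 and 55075 in the knockouts and 64285 and 70483 in the controls.

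The windows before the starts of the 4 members that fell at least 2-fold were read for arrays of inverted GAA units. These are the letters generally given for the heat shock factor family. Whether HSF5 itself binds them was not tested. The RefSeq promoter table (GRCm38.p6, from 250 bases before to 50 after each annotated start) held 37 of the 45 members. In 41 of their 50 windows, bases just after the start were found in a GENCODE M21 transcript of the gene. Which windows these were was not recorded. Each line gives the 120 bases just before the start, on the gene's strand, at chr7:100514816-100514935 (-) for Dnajb13, chr1:88205749-88205868 (-) for Dnajb3, chr5:31108199-31108318 (+) for Dnajc5g and chr12:4082454-4082573 (+) for Dnajc27. Capitals mark TGACGTCA, the cyclic AMP response element, which was searched for after it had been seen in Dnajc27.
Dnajb13: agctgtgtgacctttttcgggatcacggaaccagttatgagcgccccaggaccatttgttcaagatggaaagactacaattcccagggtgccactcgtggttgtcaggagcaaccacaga
Dnajb3: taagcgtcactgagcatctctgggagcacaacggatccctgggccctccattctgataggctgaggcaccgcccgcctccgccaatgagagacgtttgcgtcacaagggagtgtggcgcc
Dnajc5g: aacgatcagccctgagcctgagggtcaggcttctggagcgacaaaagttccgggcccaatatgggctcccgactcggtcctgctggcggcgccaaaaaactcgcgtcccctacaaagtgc
Dnajc27: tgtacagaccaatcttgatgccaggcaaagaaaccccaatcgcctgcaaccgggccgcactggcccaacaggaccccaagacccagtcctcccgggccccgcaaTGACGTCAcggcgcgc

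A pair of inverted units was searched as GAANNTTC or TTCNNGAA, each of which reads the same on both strands. A run of 3 units, searched on both strands, was either pair followed by any NN and the next inverted unit, and so contains the pairs. In the full windows, a pair was held by 7 of the 37 members (18.9%), against 17.0% of 27025 genes in the table, and 3 units by 1 member (2.70%), against 0.662%. TGACGTCA was held by 1 member, Dnajc27 (2.70%, against 2.03% of all genes). It was searched for because it had been seen there, so that 1 match was fixed in advance. The 4 called members with a pair, of 11 called members with a window, are Dnajb6, Dnajc10, Dnajc27 and Dnajc5g, and the uncalled ones are Dnaja1, Dnaja4 and Dnajb4. Capitals below mark the matched letters in 30 bases of the called members, the 3-unit run in Dnajb6. The first matched base, counted from the start, is -46 or -127 in Dnajb6, which has 2 annotated starts, -182 in Dnajc10, -213 in Dnajc27 and 34 in Dnajc5g. These stretches are chr5:29735841-29735870 (+), chr2:80315273-80315302 (+), chr12:4082350-4082379 (+) and chr5:31108339-31108368 (+). A match is a description of the letters and not a bound site. Neither a match nor its absence tells whether HSF5 binds there.
Dnajb6: ctcagctccgaGAATCTTCCGGAAcgctag
Dnajc10: aacaattttatTTCTAGAAaactttaatta
Dnajc27: cacccatcggtGAAGATTCcaggaaaaaaa
Dnajc5g: ccagaggcaatatGAAAGTTCacgtctacc

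Subfamily A, the general cytosolic and mitochondrial co-chaperones with a zinc finger, had 0 of 4 members called by limma. The share called in either direction was 16.8% over all genes tested, so 0 of 4 does not set the subfamily apart. At an unadjusted p under 0.05, 2 of the 4 were lower, beside 3522 of 17480 genes tested. The authors' deposited table called 0 of them. The subfamily's median log2 fold change was -0.13. The 2 most abundant were the nearest to a call. Dnaja1, a cytosolic partner of HSC70, had 5378 and 4991 normalised counts in the knockouts, against 5928 and 6187 in the controls, a log2 fold change of -0.23 (SE 0.07, limma adjusted p = 0.0653). Dnaja2 had 5004 and 4841 against 5570 and 5582 (-0.18, SE 0.07, limma adjusted p = 0.103). In both genes the groups did not overlap, but the gap was small and did not pass the test. Dnaja3, of mitochondria, and Dnaja4 had overlapping groups and log2 fold changes of -0.08 and -0.04. In GENCODE M21, 44.1% of the exon bases of Dnaja4 also lie in exons of Wdr61 on the opposite strand.

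Subfamily B had 3 falls among 11 tested members (27.3%, against 13.5% of all genes tested) and no rise. Its median was -0.35, with log2 fold changes from -2.32 to 0.15. Beside Dnajb13 and Dnajb3, the only other fall was Dnajb6, a broadly expressed chaperone that keeps aggregation-prone proteins soluble. It had 2872 and 2467 normalised counts in the knockouts, against 3359 and 4165 in the controls. The groups did not overlap, though the controls were further apart than knockout 1 and control 1 were. The log2 fold change was -0.49 (SE 0.12, limma adjusted p = 0.0230), lost without control 2 (limma adjusted p = 0.201) and without knockout 3 (limma adjusted p = 0.185). The list of members built like Dnajb6 holds Dnajb2, Dnajb3, Dnajb6, Dnajb7 and Dnajb8. Of its 3 tested members, Dnajb3 and Dnajb6 fell (66.7%, against 13.5% of all genes tested). Dnajb14, a membrane-bound co-chaperone of the endoplasmic reticulum, had 609 and 573 against 685 and 878 (-0.39, limma adjusted p = 0.0886). Dnajb4, a cytosolic relative of Dnajb1, had 787 and 723 against 891 and 954 (-0.29, limma adjusted p = 0.0959).

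Dnajb1 and Dnajb2 depended on which control was used. Dnajb1 had 2266 and 2000 normalised counts in the knockouts, against 2327 and 3144 in the controls, and Dnajb2, a neuronal and ubiquitin-binding member, 1190 and 977 against 1151 and 2094. In both, control 1 lay at or near the knockouts and control 2 well above. With all 4 libraries neither was called (limma adjusted p = 0.128 and 0.177), whereas without control 1 both were (limma adjusted p = 0.0341 and 0.0186). Dnajb11, the most abundant of subfamily B per kilobase by group mean, overlapped between groups, with 3502 and 3028 against 3315 and 3562 and a log2 fold change of -0.08. That direction turned without knockout 3 (0.027) and with library totals (0.032).

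Subfamily C had 8 falls among 26 tested members (30.8%, against 13.5% of all genes tested) and the only rise (3.85%, against 3.28%), with a median of -0.11. Its largest fall after Dnajc5g was Dnajc27, which joins a Rab-like GTPase to a J domain. It had 692 and 746 normalised counts in the knockouts, against 1203 and 1799 in the controls. The groups were well apart, with means of 719 ± 38.4 in knockouts and 1501 ± 421 in controls (SD, n = 2 each). The log2 fold change was -1.03 (SE 0.17, limma adjusted p = 0.00446), and the call held without each library, with values from -1.32 to -0.74. It was lost without the filter on low values (limma adjusted p = 0.0801).

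The 2 called members that work at ribosomes were Dnajc2 and Dnajc21. Dnajc2 (also MPP11) binds translating ribosomes together with an HSP70 partner. It had 2389 and 2429 normalised counts in the knockouts, against 3280 and 3626 in the controls. The control libraries differed by only 0.14 on the log2 scale, much less than the log2 fold change of -0.52 (SE 0.08, limma adjusted p = 0.00325), and the call held whichever library was left out, between -0.59 and -0.45. Dnajc21, which acts in the maturation of the large ribosomal subunit, had 1646 and 1495 against 2002 and 2180 (-0.41, SE 0.09, limma adjusted p = 0.0161). Its call was lost without control 2 (limma adjusted p = 0.140) and without knockout 3 (limma adjusted p = 0.154). A list of 7 members was drawn up under ribosome, RNA processing and nucleus (Dnajc2, Dnajc8, Dnajc9, Dnajc14, Dnajc17, Dnajc21 and Dnajc24). In it Dnajc2 and Dnajc21 were the only called genes (28.6%, against 13.5% of all genes tested). The list median of 0.01 is the value of Dnajc14, and the roles of its members were not tested here.

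In the endoplasmic reticulum 2 of 10 listed members fell (20%, against 13.5% of all genes tested) and none rose, with a median of -0.14. Dnajc3 (also p58IPK), a lumenal co-chaperone of BiP, had 3071 and 2814 normalised counts in the knockouts, against 3804 and 3962 in the controls. Its controls agreed closely, and the log2 fold change was -0.40 (SE 0.08, limma adjusted p = 0.00923). Dnajc10 (also ERdj5), a disulfide reductase that aids degradation of misfolded proteins, had 2559 and 2490 against 2994 and 3235 (-0.30, SE 0.08, limma adjusted p = 0.0304). The call of Dnajc3 was lost without control 2 or knockout 3 (limma adjusted p = 0.106 and 0.101). Dnajc10 kept its call only without control 1 (limma adjusted p = 0.0498), was lost without each of the other libraries (0.124 to 0.198), and was also lost with library totals (-0.19, limma adjusted p = 0.118).

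Mitochondrial members moved both ways, with 2 falls (28.6%) and 1 rise (14.3%) among 7 and a median of -0.14. Over all genes tested the shares were 13.5% and 3.28%. Dnajc15, of the inner membrane, had 1214 and 1114 normalised counts in the knockouts, against 1439 and 1666 in the controls (-0.41, SE 0.10, limma adjusted p = 0.0281). Dnajc4 had 252 and 258 against 379 and 465 (-0.72, SE 0.15, limma adjusted p = 0.0140). Both were called without control 1 and lost their call without any other library (limma adjusted p from 0.0824 to 0.211 for Dnajc15 and from 0.0878 to 0.153 for Dnajc4), and Dnajc15 also with library totals (-0.30, limma adjusted p = 0.0605).

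Dnajc19, a subunit of the import motor on the matrix side of the inner membrane, was the only member called higher. It had 726 and 579 normalised counts in the knockouts, against 481 and 436 in the controls, with means of 652 ± 104 in knockouts and 459 ± 31.5 in controls (SD, n = 2 each). The log2 fold change was 0.50 (SE 0.14, limma adjusted p = 0.0440), and the call was lost without any 1 library (limma adjusted p from 0.0620 to 0.295). In GENCODE M21 178 of its 4027 exon bases (4.42%) also lie in exons of Fxr1 on the opposite strand, which fell by 0.46 on the log2 scale.

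**Figure D3:**
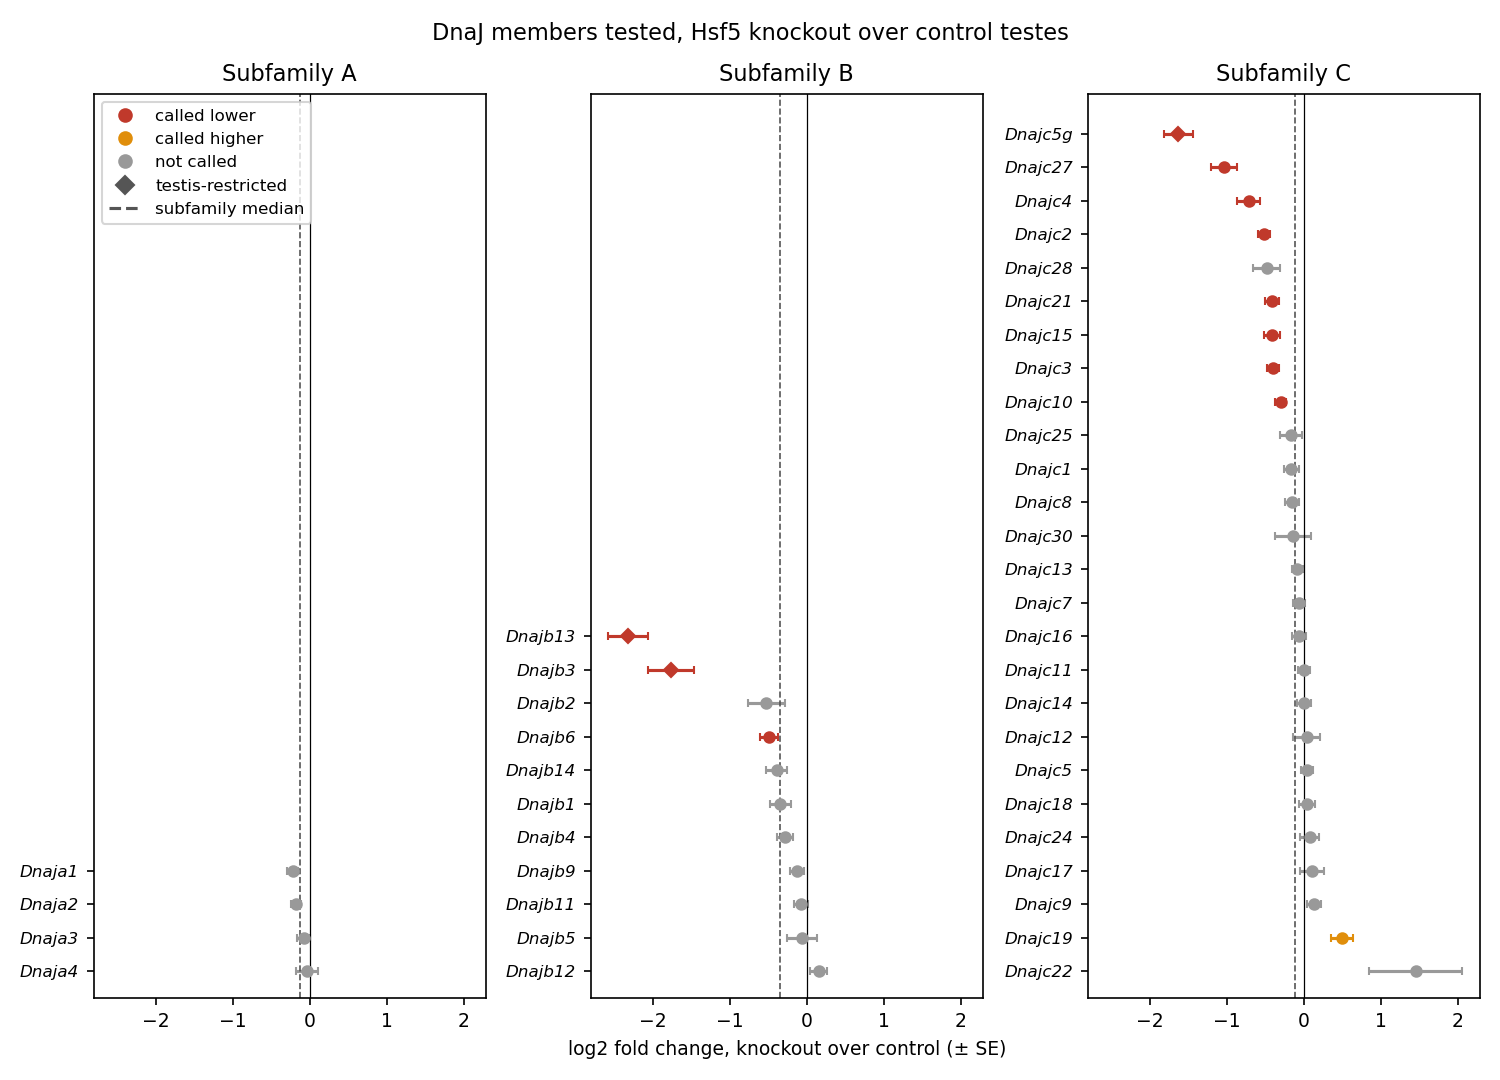
Log2 fold change of knockout over control (± SE, n = 2 each) for the 41 tested members by subfamily, with diamonds for testis-restricted members and a dashed line at each subfamily median. The 3 diamonds have the lowest values of all members, no subfamily A member is called, and Dnajc22 has the widest error bar.

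The 29 tested members that were not called ranged from -0.53 for Dnajb2 to 1.46 for Dnajc22 on the log2 scale, and 22 of them lay within 0.2 of 0. Dnajc22 rested on 22.0 and 19.5 normalised counts in the knockouts, against 11.6 and 3.97 in the controls (SE 0.60, limma adjusted p = 0.143), and passed the filter on low values only through the knockouts. Dnajc6, the neuronal auxilin, was not tested, with 12.0 and 2.05 against 9.70 and 15.9. Dnajc11, of the mitochondrial contact site complex, and Dnajc14 were nearest to 0, with log2 fold changes of 0.0013 and 0.0054. In the vesicle and clathrin list, Dnajc5g was the 1 fall of 3 tested (33.3%, against 13.5% of all genes tested). Dnajc5 and the endosomal Dnajc13 of that list stood at 0.04 and -0.09. Of the members in no role list, Dnajc7 and Dnajc12 stood at -0.07 and 0.04. The 6 canonical cytosolic members, Dnaja1, Dnaja2, Dnaja4, Dnajb1, Dnajb4 and Dnajb5, had 0 calls by limma and 0 in the authors' deposited table. By limma 16.8% of all genes tested were called in either direction, so 0 of 6 does not set them apart. At an unadjusted p under 0.05, 4 of the 6 were lower, beside 3522 of 17480 genes tested. Their median was -0.20.

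Control 2 was above control 1 in each of the 11 members that fell, by 0.06 to 1.04 on the log2 scale, and in 16 of the 29 members not called. The median of this gap was 0.06 for the tested members and 0.02 for all genes tested. How often control 2 stood higher among all genes called lower was not counted, so this is not shown to be particular to the family. The gap was 1.04 in Dnajb3, 0.70 in Dnajb13, 0.58 in Dnajc27 and 0.56 in Dnajc5g, beside a median of 1.32 in the pachytene marker list and of 0.82 in the Leydig cell list. In Dnajc2, Dnajc3, Dnajc10 and Dnajc21 it was at most 0.14. Of the 12 calls, 4 were kept without each library in turn (Dnajb13, Dnajc5g, Dnajc2 and Dnajc27). Without control 1, 11 of the 12 were kept and 4 further members passed, Dnajb1, Dnajb2, Dnajb14 and Dnajc22, whereas 4 were kept without control 2, 4 without knockout 3 and 8 without knockout 1.

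**Figure D4:**
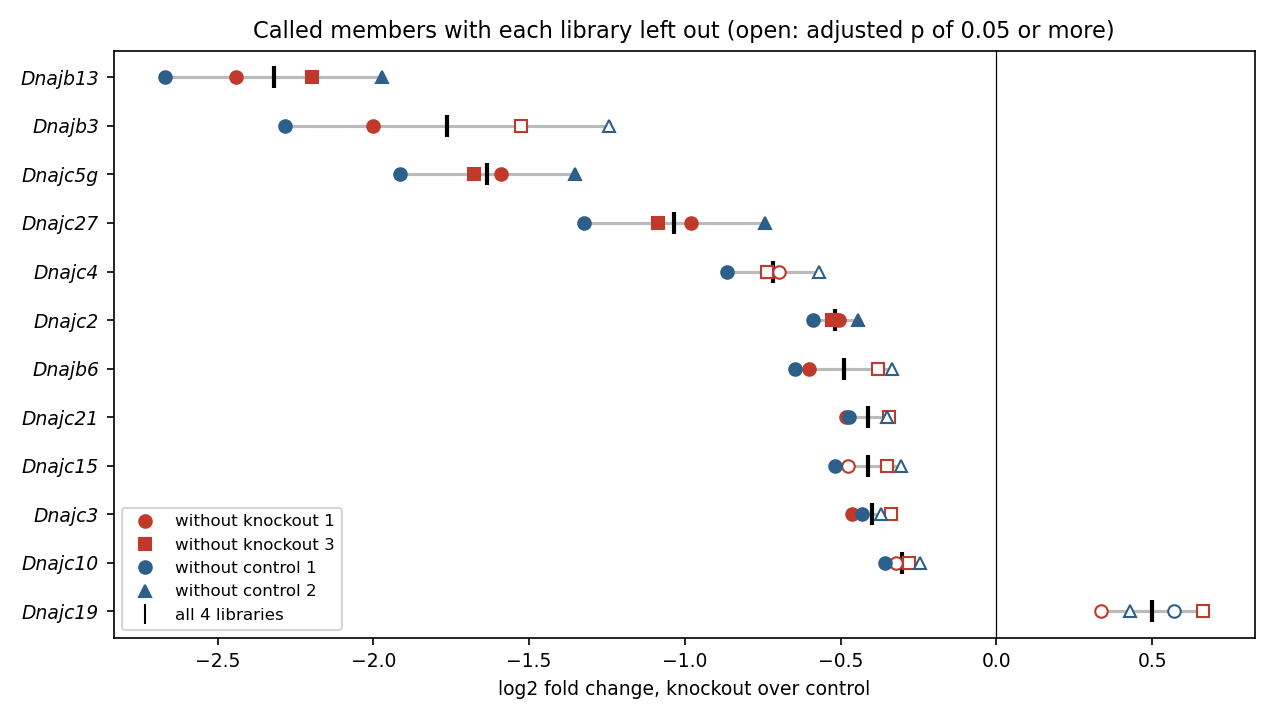
Log2 fold change of knockout over control for the 12 called members with each library left out (filled, adjusted p under 0.05; open, not) and with all 4 (black bar). All symbols of Dnajb13, Dnajc5g, Dnajc27 and Dnajc2 are filled, all of Dnajc19 are open, and no value changes sign.

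Among 15 HSP70 chaperones and their HSP110-type relatives, 5 fell (33.3%, against 13.5% of all genes tested) and 1 rose (6.67%, against 3.28%). Their median log2 fold change was -0.02. The falls were the HSP70 genes Hspa2 and Hspa9 and the HSP110-type genes Hspa4, Hspa4l and Hyou1. Hspa2, the HSP70 of spermatocytes, had 7172 and 5987 normalised counts in the knockouts, against 15371 and 19204 in the controls (-1.39, SE 0.12, limma adjusted p = 0.000293). Hspa4l, an HSP110-type exchange factor enriched in germ cells, had 5852 and 5407 against 10063 and 11215 (-0.92, SE 0.08, limma adjusted p = 0.000293). Both calls held whichever library was left out, and were lost without the mean-variance trend (limma adjusted p = 0.0925 for each). The other falls were smaller, with log2 fold changes of -0.29 for Hspa4, -0.31 for the mitochondrial Hspa9 and -0.34 for Hyou1 of the endoplasmic reticulum (limma adjusted p from 0.0100 to 0.0199). The constitutive cytosolic HSC70 gene Hspa8 and the BiP gene Hspa5 stood at 0.03 and -0.02, and were singled out after their values were seen. The inducible Hspa1b was the rise (0.56, limma adjusted p = 0.0447), with 514 and 440 against 362 and 288, and lost its call without any 1 library (limma adjusted p from 0.0557 to 0.265). It is not called in the authors' deposited table, and its near-identical copy Hspa1a, with which reads could be shared, had 175 and 182 against 142 and 119 (0.46, limma adjusted p = 0.145).

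Among 14 nucleotide exchange factors and other HSP70 cofactors, 3 fell (2 in the authors' deposited table), with a median of -0.04. That share of 21.4% stands beside 13.5% of all genes tested. Bag5, a BAG-domain exchange factor, had 680 and 703 normalised counts in the knockouts, against 935 and 1688 in the controls (-0.86, limma adjusted p = 0.0357). Bag6, which triages misfolded membrane proteins, had 6737 and 6806 against 8283 and 10257 (-0.44, limma adjusted p = 0.0165). Bag5 and Bag6 both lost the call without control 2 (limma adjusted p = 0.103 and 0.136), knockout 1 (0.151 and 0.0892) or knockout 3 (0.160 and 0.0984). St13, the HSP70-interacting protein HIP, had 5908 and 5682 against 7611 and 7633 (-0.40, limma adjusted p = 0.00421), and lost its call without control 2 (0.0727) and without knockout 3 (0.0527). Sec63, a J protein of the protein translocation channel that lies outside the DnaJ symbols, had 2872 and 2757 against 2889 and 2975 (-0.06, limma adjusted p = 0.633), and stood at 0.05 with library totals.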

How the data were processed

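The table analysed is one deposited by the authors for mouse testis RNA sequencing. Per the labels' protocols, total RNA went into an NEBNext Ultra RNA library kit. Per the submitters' processing notes the tools were DESeq2, featureCounts, Bowtie2 and cutadapt and the build mm39, without versions, settings or strand. The signal deposited by the authors is a normalised count per library. In each library 100% of values were multiples of the smallest value, within 1e-06 of a whole number, as read counts divided by 1 size factor would be. Per the file headers, the authors' own comparison sits beside it as a log2 fold change, its standard error, a test score, and the p-value before and after adjustment.

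The test was limma 3.58.1 in R 4.3.3, with the trend option, on log2(value + 1). It took the 17480 genes whose mean was at least 10, and Benjamini-Hochberg adjustment ran over all of them. Variances were pooled with 6.3 prior against 2 residual degrees of freedom. On this scale low genes show too small a fold change. The count tests planned as alternatives were not run. A unit check refused 2 of the 4 columns because their smallest values, 1.002 in knockout 1 and 0.992 in control 2, lie near 1. All values of these 2 columns were still multiples of the smallest value. Levels per kilobase use merged exons of GENCODE M21 (GRCm38), matched on gene ID for all 45 members, of which 18 share exon bases with another gene. How shared reads were counted is not stated; the copies Dnaja1-ps, Dnajb6-ps and Dnajc19-ps had at most 6.01 in any library.

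The members and gene lists were chosen with earlier results of these data known. Named genes are the called and the testis-restricted members, the 2 most abundant members of each subfamily by mean value, the 3 uncalled members with the lowest adjusted p, Hsf5, and up to 3 called genes of each HSP70 list (the most abundant where none was called); others were named after their values were seen. Alternatives were other pseudocounts, filters, variance models and scalings, and each library left out. The list of J proteins outside the DnaJ symbols is not reported here as a whole.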

Additional observations from a re-analysis of the deposited data

How the results depend on the processing

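The 11 falls and 1 rise among members were the same counts with pseudocounts of 0.5 and 5, a mean of at least 50 and TMM factors. With library totals, where the all-gene median was 0.12, 9 members fell and 1 rose, and over all genes 2007 were lower and 1511 higher (57.0% lower) against 2366 and 573 (80.5% lower) in the test reported. Without a filter on low values 3 members were lower and 0 higher (Dnajb13, Dnajc2 and Dnajc5g), with 815 lower and 37 higher over all genes. Without the mean-variance trend, limma called 0 members lower and 0 higher (12 at an unadjusted p under 0.05, and 11 lower and 1 higher in the authors' deposited table), with 40 lower and 0 higher over all genes (4283 at an unadjusted p under 0.05). With each library left out, 4 to 14 members were lower and 0 to 1 higher, and 889 to 2096 genes were lower and 31 to 337 higher over all genes. The count without control 2 itself moved, from 889 lower and 31 higher to 1389 and 192, when the filter was redone over the remaining libraries, an alternative added after seeing the data. Dnajb3, Dnajc3 and St13 were then called without control 2 as well, and Dnajc10 was lost without control 1. In such fits the lone library is assumed to vary like the other group. Dnajb11 (-0.08) ranged from -0.18 without knockout 1 to 0.027 without knockout 3 and stood at 0.032 with library totals, where Sec63 stood at 0.050. No paired analysis was possible because the groups share only 1 replicate number among the libraries analysed. The edgeR and DESeq2 tests planned were not run. The 4 members left out by the filter had adjusted p-values from 0.547 to 0.996 when it was dropped.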
